A study of Homo sapiens with 8 samples.

Results

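Lysosomal enzymes and membrane proteins were followed as a set of 46 genes, chosen by symbol as cathepsins, other acid hydrolases, membrane proteins, V-ATPase subunits and the TFEB family of factors that accompany phagocyte maturation. They were 46 of 26475 genes in the count table, and the rule used their symbols and no threshold on measured values. The choice was made with earlier results of these data known, so it was not independent of them. By role they comprised 11 proteases and associated enzymes, 13 glycosidases and sulfatases, 8 genes of lipid handling, 6 membrane proteins, 5 V-ATPase genes and 3 transcription factors. Progranulin was counted with the genes of lipid handling.

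The study asked how MOLM-13, a human acute myeloid leukaemia line with a KMT2A rearrangement and no engineered genotype (WT in the labels), responds when Menin and the histone acetyltransferase KAT6A are inhibited singly or together. Bulk RNA was sequenced in 4 groups of 2 libraries: DMSO (the vehicle), the Menin inhibitor VTP50469, the KAT6A inhibitor WM1119 (written WM119 in the labels), and VTP50469 plus WM1119, called the combination here. All groups were the same line, so every value belongs to that 1 line; doses and treatment times were not given in the sources used here. Whether the replicates are independent cultures was not stated, so p-values measure only the spread between these samples, which may be technical.

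Lysosomes break down proteins, glycans and lipids delivered by endocytosis, phagocytosis and autophagy, with hydrolases that work at the acid pH the V-ATPase proton pump maintains. Heavily glycosylated membrane proteins line the limiting membrane, and the basic helix-loop-helix factors TFEB, TFE3 and MITF bind E-box motifs at many lysosomal genes. Monocytes and macrophages are rich in lysosomes, and progranulin, prosaposin and the cathepsins are abundant products of these cells.

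The library totals ran from 18092906 to 23634468 counts. Replicate 2 of the combination stood apart: its log2 values correlated with those of replicate 1 at a Pearson r of 0.955, with 1842 genes over 2-fold apart, against 0.991 to 0.995 and 27 to 83 genes in the other pairs (across genes, which are not independent replicates). It held counts for 12972 genes, against 14142 to 14544 in the other libraries. Its log2 difference from the DMSO mean fell with transcript length (Spearman rho -0.559 across genes), a measure that also holds any effect of treatment. Such a trend was not particular to it: rho was -0.525 in WM1119 replicate 1 and -0.295 in VTP50469 replicate 2, and between -0.216 and 0.216 in the other 5 libraries, so it touches the single-agent comparisons too. The DMSO values, 0.216 and -0.216, mirror each other because each library was set against the mean of both. Among the members, combination replicate 2 was above replicate 1 for 33 and below for 12, and 21 members differed by over 1.5-fold between the 2 libraries. Across the 45 members tested, the log2 difference of replicate 2 from replicate 1 fell with transcript length (Spearman rho -0.614), as it did across 11326 tested genes (-0.611). The median transcript length was 2475 bases for the members and 3254 for the genes tested. The part of length in the results was not tested beyond the fits given below, so the counts and the named members' changes with the combination are also given from a fit without its replicate 2. Of the MOLM-13 identity markers, CD33 stood at 52.1 and 51.8 CPM and FLT3 at 253 and 232 CPM in DMSO (CPM, counts scaled to 1000000 per library). KIT, another identity marker, stood at only 0.541 and 0.285 CPM in DMSO. Of the markers of T, erythroid, megakaryocytic and epithelial or stromal cells, CD3E, HBB, PF4, EPCAM and COL1A2 were at 0 counts in every library. Other markers of these cells were not. In DMSO, NKG7 stood at 20.6 and 19.2 CPM, CD3D at 4.49 and 2.85, and EPOR at 11.3 and 14.4. GP1BA stood at 1.30 and 1.42 CPM there and KRT18 at 0.541 and 0.949. Sums over each list are given below.

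The promoters show what part of the set carries the E-box letters that TFEB-family factors are known to bind. RefSeq promoter windows (GRCh38.p14, 250 bases before to 50 after the first listed start) matched 34 of the 46 members. The palindrome CACGTG, which reads the same on both strands, was in 9 of the 34 (26.5%), in 10.5% of 9248 windows of tested genes and in 7.43% of all 27305 windows. Its longer form TCACGTGA, which contains CACGTG, was in 5 members (14.7%), against 2.01% of tested genes and 1.04% of all windows. The stretches below are the parts of the 100 bases before the start that lie outside every exon of GENCODE 44. They come from 5 members of the 9 with the motif, printed 5′ to 3′ on the gene's strand with CACGTG in capitals. They lie at chr11:1763965-1764027 (minus strand, CTSD), chr16:67481182-67481257 (minus, ATP6V0D1), chr17:80101481-80101532 (plus, GAA), chr13:113297139-113297238 (plus, LAMP1) and chr19:7522524-7522623 (plus, MCOLN1).
CTSD: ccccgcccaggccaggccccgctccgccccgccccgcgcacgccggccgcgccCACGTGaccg
ATP6V0D1: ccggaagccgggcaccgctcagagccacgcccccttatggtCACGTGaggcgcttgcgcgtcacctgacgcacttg
GAA: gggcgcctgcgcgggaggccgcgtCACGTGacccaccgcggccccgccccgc
LAMP1: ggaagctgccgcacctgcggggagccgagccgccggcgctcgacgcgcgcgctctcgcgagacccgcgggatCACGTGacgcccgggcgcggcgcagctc
MCOLN1: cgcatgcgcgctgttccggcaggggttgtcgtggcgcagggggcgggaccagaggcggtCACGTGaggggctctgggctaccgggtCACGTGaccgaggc
The first capital lies 47 bases before the start in CTSD, 59 in ATP6V0D1, 76 in GAA and 28 in LAMP1, and MCOLN1 holds the motif at 41 and at 14 bases. CTSD and ATP6V0D1 are members that rose with the combination; GAA, LAMP1 and MCOLN1 did not pass the test. The other members with the motif were CTSA, IFI30, NEU1 and CD63.

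Under the combination the lysosomal set rose broadly, with progranulin (GRN) and cathepsin Z (CTSZ) at the largest log2 changes. Of 45 members tested by edgeR, 21 were called higher than in DMSO at an adjusted p under 0.05, where 5.85% of all 12401 genes tested were called higher. Only CTSL was called lower, where 3.44% of all genes were, and 23 did not pass. Counting direction alone, 42 of the 45 lay above 0 (50.6% of all genes did), with a median log2 change of 0.79 against 0.01 over all genes. In 38 members both combination libraries lay above both DMSO libraries (29.0% of all genes did), and in 1 member both lay below (30.9% of all genes). Without combination replicate 2, 32 members were called higher and 1 lower, where 8.90% of genes were called higher. In that fit the lone combination library is assumed to vary like the other groups. DESeq2 called 30 higher (7.86% of genes), and a fit with an offset for transcript length called 34 higher (11.3% of genes). Shares for DESeq2, here and below, are over 16403 genes with any count, without the filter that left 12401 for edgeR. The calls rested on both DMSO libraries: without either one, no member kept its call, and most calls over all genes were lost too. The members' median log2 change was then 0.76 without DMSO replicate 1 and 0.79 without DMSO replicate 2. The calls rested also on the single-agent libraries that inform the spread. A fit of the DMSO and combination libraries alone called 0 members, and 0% of all genes.

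**Figure D1:**
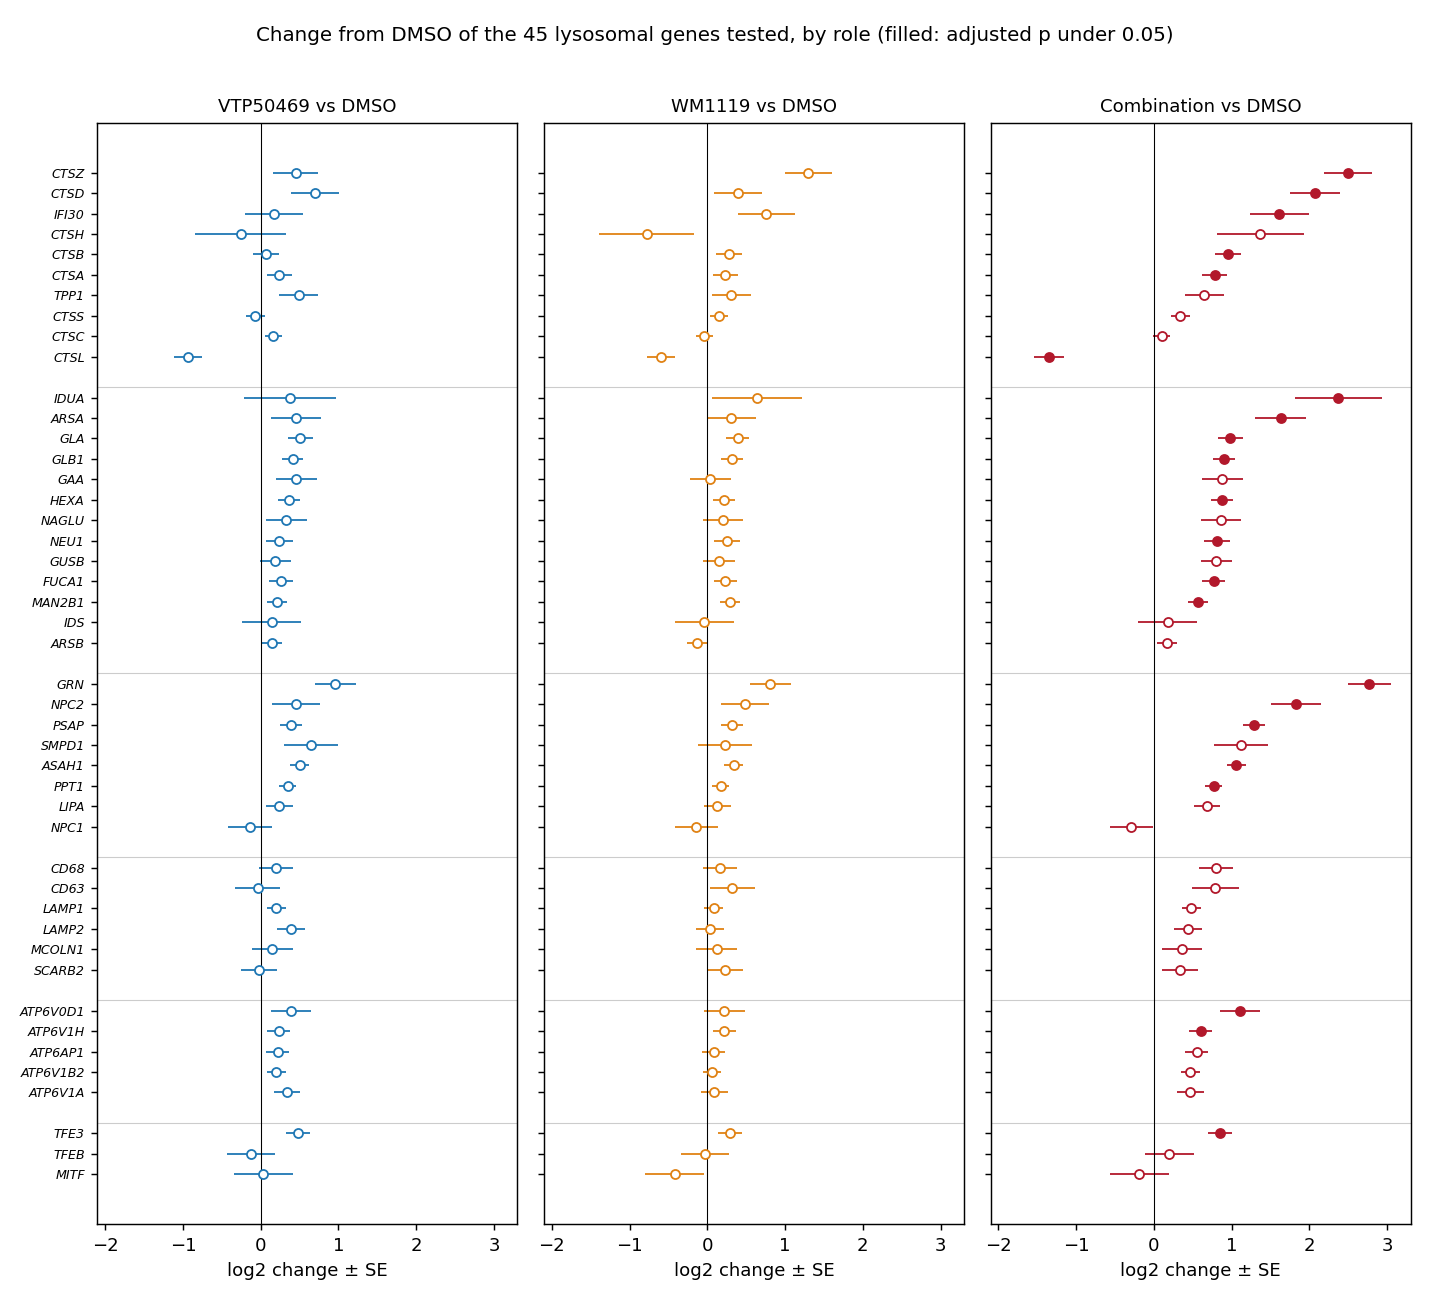
Log2 change from DMSO ± SE of the 45 members tested (vertical axis, grouped by role and ordered by their change with the combination) for VTP50469, WM1119 and the combination, each from 2 libraries a group; filled points passed an adjusted p of 0.05 by edgeR. The combination panel holds 22 filled points, 21 to the right of 0 and CTSL to the left, and the single-agent panels hold none.

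Genes of lipid handling, counted with progranulin, had the highest median of the roles, a log2 change of 1.09, and 5 of 8 were called higher. GRN (chr17:44345246-44353106 on hg38, plus strand), which encodes progranulin, a secreted and lysosomal glycoprotein cleaved into granulins, stood at 162 and 174 CPM in DMSO, 319 and 337 with VTP50469, 308 and 280 with WM1119, and 818 and 1478 with the combination. Both single agents lay above DMSO and the combination lay above all others, without overlap. The combination differed from DMSO by 2.77 ± 0.28 on the log2 scale (SE; 6.82-fold; adjusted p = 0.00352 by edgeR), and by 2.29 without replicate 2. PSAP, the precursor of the saposins that help hydrolases reach sphingolipids, stood at 189 and 190 CPM in DMSO, 235 and 260 with VTP50469, 248 and 227 with WM1119, and 420 and 505 with the combination. Here too the combination libraries lay above the other 6, with a log2 change from DMSO of 1.29 ± 0.14 (adjusted p = 0.00483 by edgeR), or 1.16 without replicate 2. ASAH1, acid ceramidase, was at 73.4 and 71.7 CPM in DMSO, 102 and 103 with VTP50469, 89.5 and 94.4 with WM1119, and 155 and 148 with the combination. Its 4 groups did not overlap and its 2 combination libraries lay close together, at a log2 change of 1.06 ± 0.12 (adjusted p = 0.00476 by edgeR), or 1.11 without replicate 2.

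Of the cholesterol carriers of the lysosome, NPC2 was called and NPC1 was not, and whether they differed was not tested. Their transcripts are 821 bases long for NPC2 and 4760 for NPC1, and values in combination replicate 2 moved with length. NPC2, which carries cholesterol in the lumen, stood at 31.2 and 32.7 CPM in DMSO, 41.0 and 46.3 with VTP50469, 49.2 and 39.6 with WM1119, and 75.6 and 151 with the combination. Both combination libraries were above the rest, and it rose by 1.83 ± 0.32 (log2; adjusted p = 0.0198 by edgeR). Its combination libraries were 2.00-fold apart, and the log2 change was 1.26 without replicate 2. NPC1, the membrane protein that exports cholesterol, was not called, at 18.8 and 21.2 CPM in DMSO and 20.6 and 12.0 with the combination, and its log2 change of -0.29 became 0.05 without replicate 2. PPT1, which removes palmitate from proteins, stood at 167 and 175 CPM in DMSO, 215 and 221 with VTP50469, 195 and 189 with WM1119, and 286 and 295 with the combination. The PPT1 groups did not overlap, and its log2 change with the combination was 0.77 ± 0.11 (adjusted p = 0.0119 by edgeR), or 0.76 without replicate 2. The acid lipase LIPA (adjusted p = 0.0556) and acid sphingomyelinase SMPD1 (0.0922) did not pass by edgeR. LIPA was called in the fit without replicate 2 (adjusted p = 0.00247 by edgeR).

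Proteases held the widest range, from -1.35 to 2.50 on the log2 scale, with 5 of 10 tested called higher and 1 lower. CTSZ, a carboxypeptidase of the cysteine cathepsins, stood at 31.8 and 35.5 CPM in DMSO, 42.6 and 49.5 with VTP50469, 90.0 and 75.2 with WM1119, and 131 and 248 with the combination. Its libraries with WM1119 lay above those with VTP50469, and the combination rose by 2.50 ± 0.31 (log2; 5.64-fold; adjusted p = 0.00662 by edgeR), or by 1.98 without replicate 2. The aspartic cathepsin CTSD stood at 116 and 126 CPM in DMSO, 186 and 207 with VTP50469, 166 and 151 with WM1119, and 331 and 683 with the combination. Its combination libraries lay above all others yet 2.06-fold apart, with a log2 change of 2.07 ± 0.32 (adjusted p = 0.0132 by edgeR) and of 1.47 without replicate 2.

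CTSL, a cysteine endopeptidase, went the other way in all treated groups. It stood at 23.9 and 21.4 CPM in DMSO, 12.2 and 11.4 with VTP50469, 15.6 and 14.2 with WM1119, and 7.72 and 10.1 with the combination. No treated library reached the DMSO values, and with the combination CTSL fell by 1.35 on the log2 scale (SE 0.19; adjusted p = 0.00936 by edgeR), and the change was -1.54 without replicate 2. CTSB, a cysteine cathepsin whose family also includes CTSL, stood at 189 and 197 CPM in DMSO, 203 and 202 with VTP50469, 247 and 223 with WM1119, and 316 and 430 with the combination. Both combination libraries were highest, and CTSB rose by 0.95 ± 0.17 (log2; adjusted p = 0.0210 by edgeR), or by 0.72 without replicate 2.

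CTSA, a serine carboxypeptidase that also protects beta-galactosidase and sialidase, stood at 84.4 and 86.1 CPM in DMSO, 94.5 and 107 with VTP50469, 106 and 94.8 with WM1119, and 130 and 163 with the combination. It rose by 0.78 ± 0.16 on the log2 scale (adjusted p = 0.0304 by edgeR), or by 0.62 without replicate 2. Its exons overlap those of PLTP on the opposite strand, and whether the counting used strand was not given in the sources used here. On the same strand, exons of 7 members overlap those of another coding gene, among them the called CTSD, IFI30, GLB1, HEXA and MAN2B1. The part of such overlap in their values was not tested. IFI30, the thiol reductase GILT that opens disulfide bonds for antigen processing, stood at 18.5 and 19.4 CPM in DMSO, 18.7 and 23.9 with VTP50469, 39.4 and 24.5 with WM1119, and 38.1 and 77.8 with the combination. The lower combination value lay under the higher WM1119 value, and the log2 change from DMSO was 1.61 ± 0.38 (adjusted p = 0.0461 by edgeR), or 1.02 without replicate 2.

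Other proteases did not pass with all libraries. CTSC, which activates granule serine proteases, had the highest level per kilobase of transcript among the proteases in DMSO (118 CPM per kb). CTSC read 213 and 227 CPM in DMSO, 243 and 249 with VTP50469, 213 and 214 with WM1119, and 235 and 237 with the combination, a log2 change with the combination of 0.10 ± 0.11 (adjusted p = 0.539 by edgeR), which was -0.01 with scaling by library size only, -0.13 with the length offset and 0.11 without replicate 2. CTSS, TPP1 and CTSH had log2 changes of 0.34, 0.65 and 1.37. Without replicate 2, CTSS (0.40) and TPP1 (0.98) were called higher, while CTSH, on 8 to 39 counts a library, stood at 0.82 and was not. Leaving out each library in turn moved TPP1 from 0.22 to 0.98, the far ends coming without combination replicate 1 or 2. CTSH moved from 0.82, without combination replicate 2, to 2.04, and its DMSO libraries also stood apart, at 0.433 and 0.949 CPM. LGMN, asparaginyl endopeptidase, had 1 count in each DMSO library and 0 in the other 6 libraries, and was not tested.

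**Figure D2:**
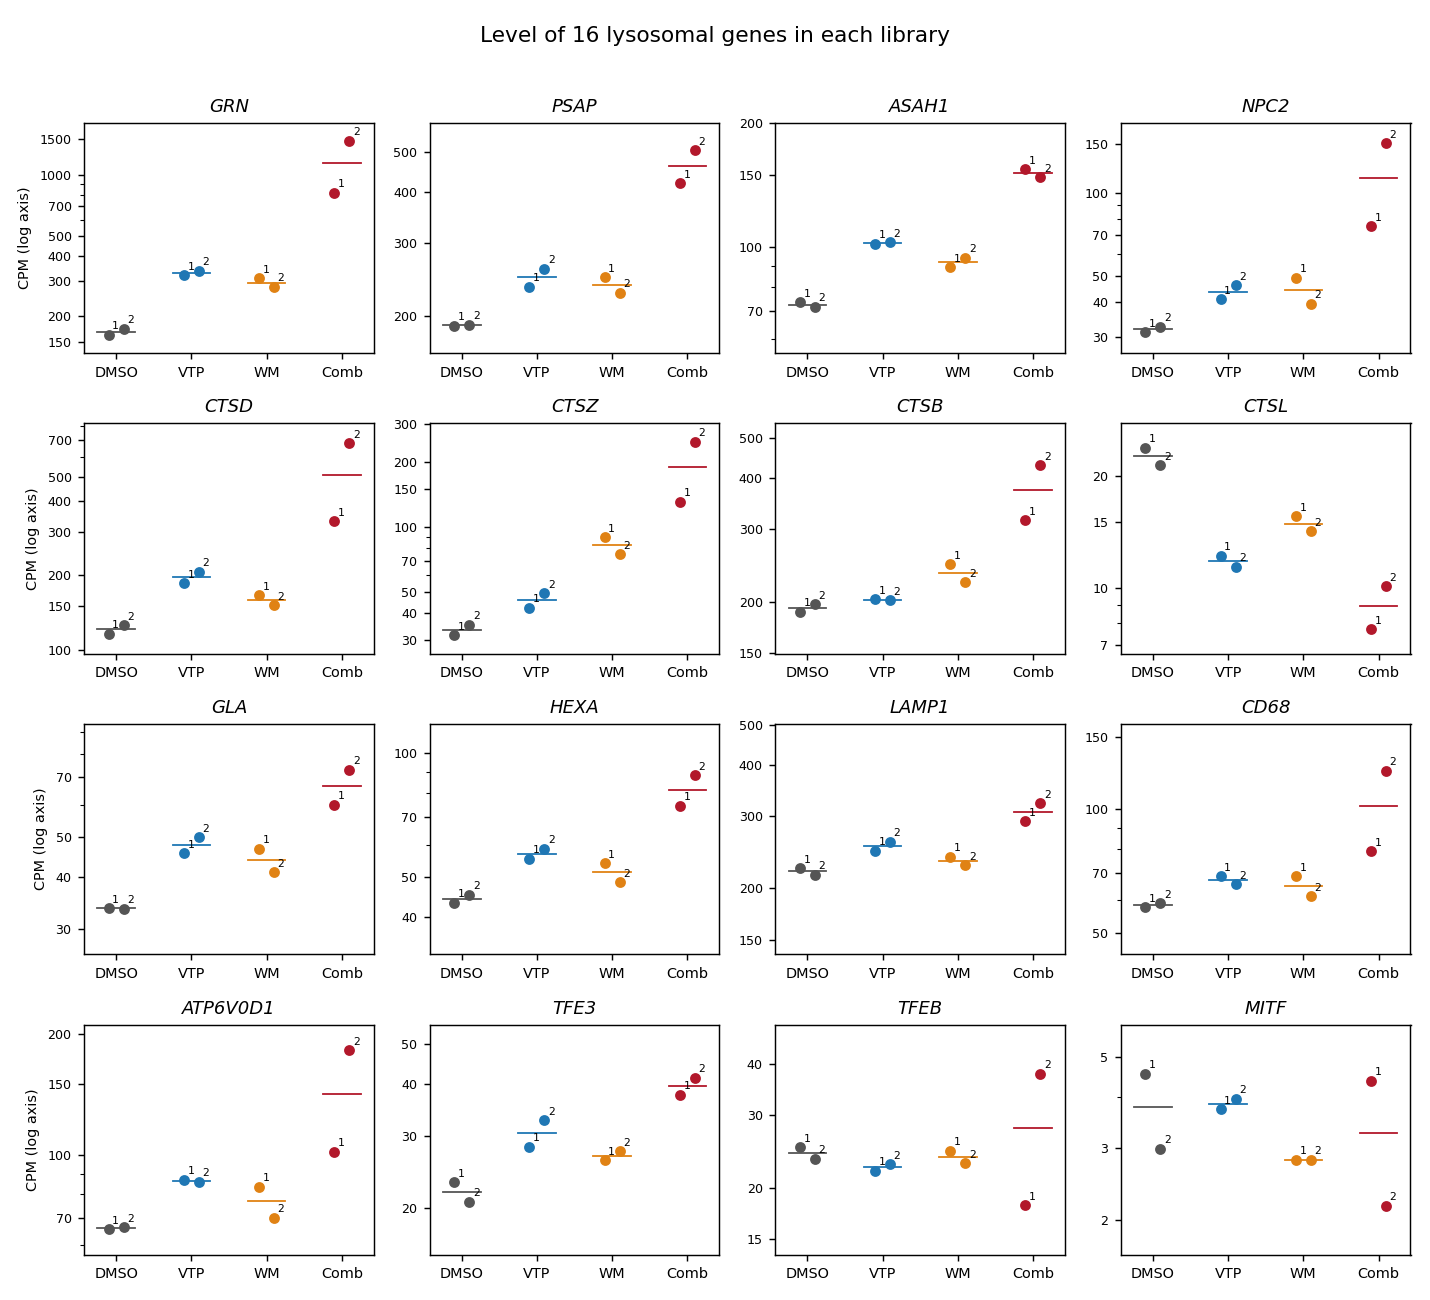
CPM (log axis, its range set for each gene) of 16 members in each of the 8 libraries, with replicate numbers beside the points and a line at the group mean (VTP, VTP50469; WM, WM1119; Comb, combination). GRN, PSAP, ASAH1 and TFE3 were highest in both combination libraries, CTSL was lowest there, and the combination libraries lay on both sides of DMSO for TFEB.

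All 13 glycosidases and sulfatases lay above 0 with the combination, with log2 changes from 0.17 to 2.37, and 8 were called higher. GLA, alpha-galactosidase, stood at 33.7 and 33.6 CPM in DMSO, 45.8 and 50.0 with VTP50469, 47.0 and 41.2 with WM1119, and 60.0 and 73.1 with the combination. HEXA, the alpha chain of beta-hexosaminidase, stood at 43.3 and 45.3 CPM in DMSO, 55.4 and 58.6 with VTP50469, 54.1 and 48.6 with WM1119, and 74.5 and 88.4 with the combination. In both genes every treated library exceeded DMSO and the combination exceeded the single agents. Their log2 changes with the combination were 0.98 ± 0.16 for GLA (adjusted p = 0.0147) and 0.88 ± 0.14 for HEXA (adjusted p = 0.0168), both by edgeR, or 0.85 and 0.76 without replicate 2. GLB1, beta-galactosidase, stood at 34.4 and 40.2 CPM in DMSO, 46.5 and 52.7 with VTP50469, 45.9 and 47.1 with WM1119, and 69.3 and 69.9 with the combination. Its combination libraries were close to equal, at a log2 change of 0.90 ± 0.14 (adjusted p = 0.0147 by edgeR), or 0.91 without replicate 2.

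ARSA, the sulfatase that acts on sulfatides, had a larger change and a wide spread. It stood at 10.1 and 9.91 CPM in DMSO, 13.7 and 13.7 with VTP50469, 11.9 and 13.0 with WM1119, and 20.1 and 42.0 with the combination. Both combination libraries were highest, and it rose by 1.63 ± 0.33 (log2; adjusted p = 0.0297 by edgeR), or by 1.02 without replicate 2. The sialidase NEU1 stood at 37.4 and 37.0 CPM in DMSO, 41.2 and 46.5 with VTP50469, 47.3 and 41.1 with WM1119, and 57.6 and 72.8 with the combination. The fucosidase FUCA1 stood at 10.9 and 12.9 CPM in DMSO, 14.3 and 14.3 with VTP50469, 14.1 and 13.8 with WM1119, and 19.4 and 21.3 with the combination. NEU1 rose by 0.81 ± 0.17 (log2; adjusted p = 0.0324) and FUCA1 by 0.77 ± 0.15 (adjusted p = 0.0299) by edgeR, each with both combination libraries above the other 6. Without replicate 2 the changes were 0.64 and 0.71.

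MAN2B1, lysosomal alpha-mannosidase, had the highest level per kilobase of this class in DMSO (54.7 CPM per kb). It stood at 167 and 181 CPM in DMSO, 198 and 204 with VTP50469, 214 and 212 with WM1119, and 241 and 275 with the combination, a log2 rise of 0.57 ± 0.13 (adjusted p = 0.0395 by edgeR), or 0.48 without replicate 2. The remaining call of the class was IDUA, alpha-L-iduronidase, at 2.37 ± 0.56 (log2; adjusted p = 0.0475 by edgeR). It rested on 12 to 76 counts a library, did not pass without replicate 2 (adjusted p = 0.0748 by edgeR), and overlaps SLC26A1 on the opposite strand. GUSB, GAA, NAGLU, IDS and ARSB were not called, at log2 changes of 0.80, 0.88, 0.86, 0.18 and 0.17. Without replicate 2 these were 0.53, 0.42, 0.46, 0.64 and 0.27, and GUSB and GAA were called higher. Leaving out each library in turn, the changes reached 1.03 for GUSB, 1.22 for GAA and 1.18 for NAGLU without combination replicate 1, where IDS stood at -0.49.

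Of the 6 membrane proteins edgeR called 0, and their log2 changes ran from 0.34 to 0.80, with a median of 0.46. Whether they differed from the enzymes was not tested. At an unadjusted p under 0.05, LAMP1, LAMP2, CD63 and CD68 were higher, where 16.9% of all genes were, and DESeq2 called LAMP1 and CD68. LAMP1, a main glycoprotein of the limiting membrane, stood at 224 and 216 CPM in DMSO and 291 and 322 with the combination, a log2 change of 0.48 ± 0.12 (adjusted p = 0.0544 by edgeR), or 0.42 without replicate 2. CD63, a tetraspanin, was highest of the 6 per kilobase in DMSO (103 CPM per kb). CD63 read 111 and 100 CPM in DMSO, 92.8 and 113 with VTP50469, 148 and 115 with WM1119, and 128 and 238 with the combination, with overlap between the last pair of groups and an adjusted p of 0.133 against DMSO by edgeR. Its log2 change was 0.79, and 0.29 without replicate 2. Without replicate 2 the fit called LAMP1, LAMP2, CD68 and SCARB2 higher, so the count for this role depends on that library. MCOLN1, the cation channel TRPML1, had a log2 change of 0.36, and of -0.02 without replicate 2.

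Of the V-ATPase genes, 2 of 5 were called higher and all 5 lay above 0, from 0.47 to 1.11. ATP6V0D1, a subunit of the membrane sector, stood at 65.5 and 66.3 CPM in DMSO, 86.9 and 85.9 with VTP50469, 83.5 and 70.0 with WM1119, and 102 and 182 with the combination. Both combination libraries were above the rest, and it rose by 1.11 ± 0.26 (log2; adjusted p = 0.0469 by edgeR), or by 0.65 without replicate 2. ATP6V1H, a subunit of the cytosolic sector, was the other call, at 0.60 ± 0.15 (log2; adjusted p = 0.0495 by edgeR), or 0.50 without replicate 2. ATP6V1B2, the most abundant of the 5 per kilobase in DMSO (98.1 CPM per kb), stood at 280 and 281 CPM in DMSO, 325 and 318 with VTP50469, 288 and 298 with WM1119, and 407 and 370 with the combination. Its groups did not overlap, but its log2 change of 0.47 ± 0.12 did not pass (adjusted p = 0.0519 by edgeR); without replicate 2 it was 0.55 and called.

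Of the 3 transcription factors of the set, TFE3 was called. TFEC, a factor of the same family outside the set, is given with the lists below. TFE3 stood at 23.1 and 20.7 CPM in DMSO, 28.2 and 32.7 with VTP50469, 26.1 and 27.5 with WM1119, and 37.7 and 41.5 with the combination. Every treated library exceeded DMSO, and with the combination it rose by 0.85 ± 0.15 (log2; adjusted p = 0.0197 by edgeR), or by 0.80 without replicate 2. TFEB, the most abundant of the 3 per kilobase in DMSO (10.4 CPM per kb), read 25.1 and 23.5 CPM in DMSO, 22.0 and 22.8 with VTP50469, 24.6 and 22.9 with WM1119, and 18.1 and 37.8 with the combination. The combination libraries lay on either side of every other library, and the log2 change of 0.20 ± 0.31 (adjusted p = 0.667 by edgeR) turned to -0.41 without replicate 2. MITF read 4.55 and 2.99 CPM in DMSO, 3.73 and 3.95 with VTP50469, 2.81 and 2.81 with WM1119, and 4.37 and 2.17 with the combination. Its groups overlapped, with a log2 change of -0.19 ± 0.38 (adjusted p = 0.744 by edgeR), and the sign turned without replicate 2 (0.23). These are RNA levels; the activity of these factors is set largely by their phosphorylation and location in the cell, which were not measured.

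Of the 9 members with CACGTG in their window, 5 were called higher with the combination, and their median log2 change was 0.81. Of the other 25 matched members 10 were called higher, with a median of 0.77; the difference was not tested. GRN and CTSZ, which had the largest changes, hold no CACGTG in the window read, and PSAP and ASAH1 had no entry.

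**Figure D3:**
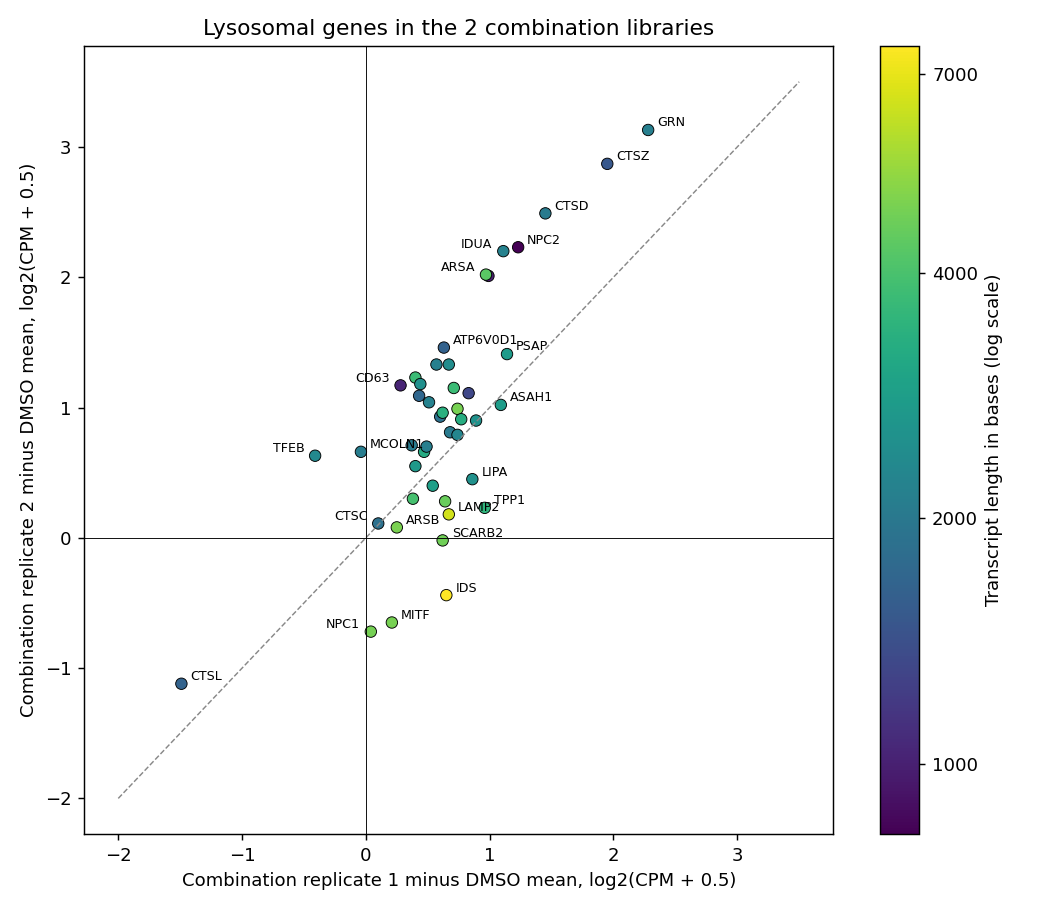
Each point is 1 of the 45 members tested, placed by its log2(CPM + 0.5) in combination replicate 1 (horizontal) and replicate 2 (vertical), each minus the DMSO mean; colour gives transcript length in bases on a log scale, and the dashed line marks equal values. Most points lie above the line, 33 in all, the longest transcript (IDS) lies below it, and TFEB, MITF, NPC1, IDS, MCOLN1 and SCARB2 fall on opposite sides of 0 in the 2 libraries.

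Each agent alone left most members above DMSO, with smaller differences than the combination. With VTP50469, edgeR called 0 members, where 0.169% of all genes were called in either direction. At an unadjusted p under 0.05, 8 members were higher and 1 lower, where 3.83% of all genes were higher. Of the 45 members, 38 lay above 0 (49.3% of all genes did), with a median log2 change of 0.24 against -0.00 over all genes. Both VTP50469 libraries lay above both DMSO libraries for 34 members (27.3% of all genes). The members with an unadjusted p under 0.05 were GRN (0.96), ASAH1 (0.50), GLA (0.51), GLB1 (0.41), HEXA (0.36), PPT1 (0.35), PSAP (0.39) and TFE3 (0.48) above 0 on the log2 scale, and CTSL (-0.94) below. DESeq2 called 2 of these, CTSL lower (adjusted p = 0.00452) and ASAH1 higher (adjusted p = 0.0171), where it called 0.799% of all genes higher. In a fit of the DMSO and VTP50469 libraries alone, edgeR called 18 members, 17 of them higher, where 5.98% of all genes were called higher.

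With WM1119, edgeR called 0 members, where 0% of all genes were called. At an unadjusted p under 0.05, 4 members were higher and 1 lower, where 3.15% of all genes were higher. Here 37 members lay above 0 (51.6% of all genes did), with a median log2 change of 0.22 against 0.01 over all genes. Both WM1119 libraries lay above both DMSO libraries for 28 members (24.1% of all genes). CTSZ had the largest change, 1.30 ± 0.30 on the log2 scale (adjusted p = 0.499 by edgeR), and was the 1 member DESeq2 called (adjusted p = 0.0122), where it called 0.317% of all genes higher. The other members with an unadjusted p under 0.05 were GRN (0.81), GLA (0.39) and ASAH1 (0.34) above 0 and CTSL (-0.60) below. VTP50469 and WM1119 share the DMSO libraries, so their like values are not independent.

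Set against the single agents, the combination was higher for most members. Against WM1119, 3 members were called higher by edgeR, where 1.02% of all genes were: GRN at 1.96 ± 0.27 (log2; adjusted p = 0.0254), PSAP at 0.96 ± 0.14 (adjusted p = 0.0314) and ASAH1 at 0.72 ± 0.12 (adjusted p = 0.0386). All 3 were listed under lipid handling, the role in which progranulin was counted. Their log2 differences without combination replicate 2 were 1.50, 0.85 and 0.77, and each was still called. All 3 lost the call without any 1 of the DMSO, VTP50469 or WM1119 libraries, with a replicate block and with only the groups compared. Without combination replicate 2, 13 members were called higher, where 2.91% of all genes were. Of the 45 members, 43 lay above 0 (49.5% of all genes did), with a median of 0.56. For 35 members both combination libraries lay above both WM1119 libraries (19.0% of all genes). DESeq2 called 16 members in this comparison, 15 higher and CTSL lower, where it called 2.70% of all genes higher.

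Against VTP50469, edgeR called 0 members, where 0.395% of all genes were called, with 27 higher and 0 lower at an unadjusted p under 0.05 (11.1% of all genes were higher at that p). DESeq2 called 11 higher, where it called 2.83% of all genes higher, and edgeR called 8 higher without combination replicate 2, where 1.72% of all genes were. The lowest adjusted p was 0.0591, for CTSZ (log2 difference 2.04 ± 0.30) and GRN (1.81 ± 0.27) by edgeR. Of the members 41 lay above 0 (50.2% of all genes did), with a median of 0.47. For 31 members both combination libraries lay above both VTP50469 libraries (22.7% of all genes).

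Whether the combination exceeded the sum of the single effects on the log2 scale was asked with the interaction term. By edgeR it called 0 members, where 0% of all genes were called, and by DESeq2 0. At an unadjusted p under 0.05, 4 members were above 0, as were 1.28% of all genes. They were GRN (1.00 ± 0.37), CTSB (0.60 ± 0.24), PSAP (0.58 ± 0.20) and CTSH (2.41 ± 0.83), each with an adjusted p of 0.938 by edgeR. The median interaction over the members was 0.26, against -0.02 over all genes, and 42 of 45 lay above 0 (48.1% of all genes did). Without combination replicate 1, 16 members were called higher, where 12.4% of all genes were, and without replicate 2 the count was 0.

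The share of all CPM held by the members summed up these shifts. The 46 members together took 0.342% and 0.349% in DMSO, 0.421% and 0.428% with VTP50469, 0.400% and 0.403% with WM1119, and 0.605% and 0.666% with the combination. The treated groups lay above DMSO, and the combination lay above both single agents, in both of its libraries. GRN did not carry this alone: without it the summed CPM was 3184 and 3230 in DMSO and 5098 and 6163 with the combination. In bulk RNA, more cells with a lysosome-rich state and more lysosomal RNA per cell cannot be told apart.

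Other genes of the lysosome outside the 46 were read from lists of related genes, of which the first was further hydrolases. Of 31 of these tested, 12 were called higher with the combination against DMSO and 0 lower. Over all genes 5.85% were called higher and 3.44% lower. The list had a median log2 change of 0.69. GM2A, the activator protein for ganglioside breakdown, rose by 1.44 ± 0.13 (adjusted p = 0.00283), and PRCP (1.26) and DNASE2 (1.83) were also called by edgeR. Further V-ATPase genes gave 2 of 15 called higher (TCIRG1 at 1.31 and ATP6AP2 at 0.65), with a median of 0.58. Further lysosomal membrane proteins gave 3 of 24 higher (LAPTM5 at 1.13, PLD3 at 1.89 and TMEM55A at 0.85) and LAPTM4B lower at -0.70, with a median of 0.26. Without combination replicate 2 the medians of these lists were 0.64, 0.26 and 0.30, in that order.

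The machinery that delivers to lysosomes or controls them moved in few genes. Of 20 genes for sorting to lysosomes, SORL1 alone was called (2.64), with a list median of 0.05. Of 23 genes listed for control of TFEB at the lysosome, 2 were called, with a median of 0.06. They were RRAGD (1.57), a GTPase that links nutrients to TFEB, and TFEC (2.60), itself a factor of the TFEB family. Of 19 autophagy genes tested, GABARAPL1 (1.74) and ATG7 (0.66) were called, with a median of 0.15. All of these calls were higher with the combination by edgeR, where 5.85% of all genes were. Without combination replicate 2 the medians of these 3 lists were 0.17, 0.10 and 0.16, in that order.

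**Figure D4:**
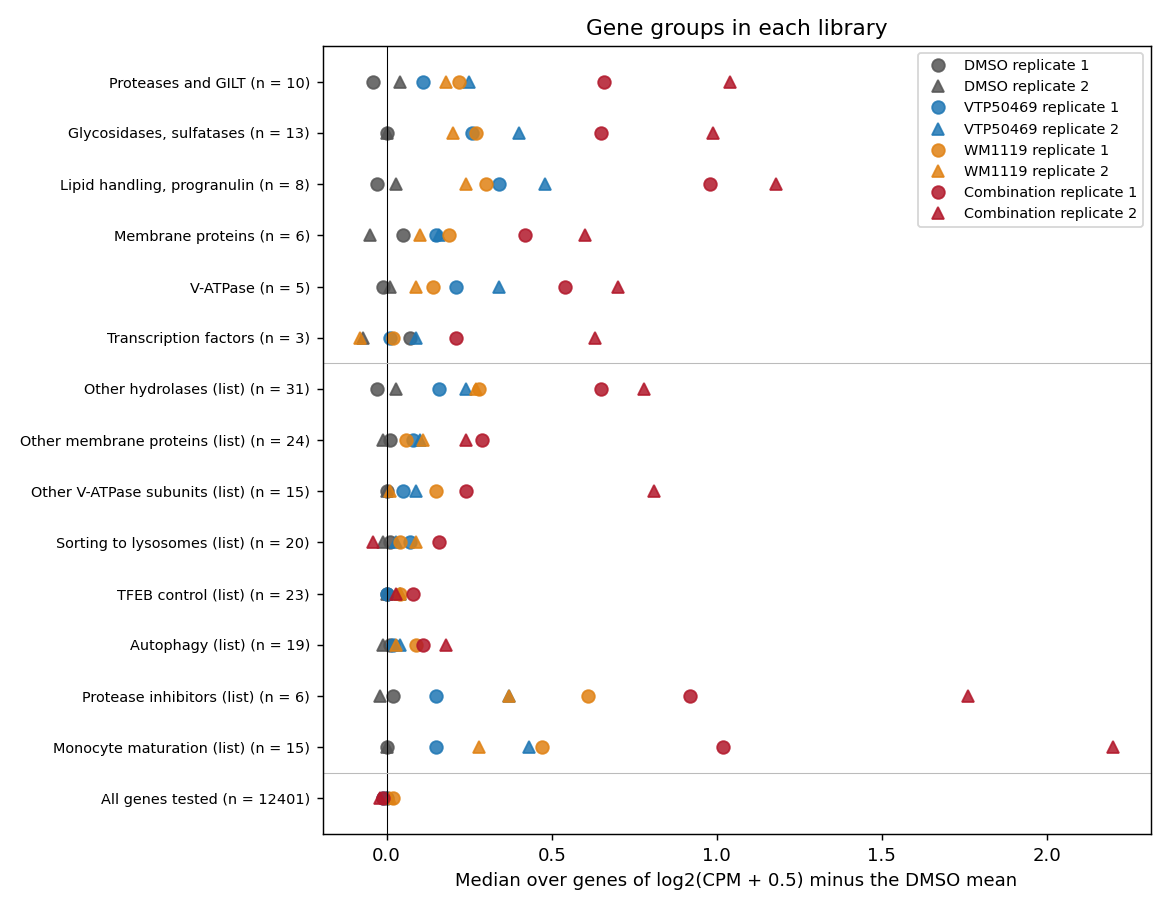
Median over the genes of each group of log2(CPM + 0.5) minus the DMSO mean (horizontal axis), for each of the 8 libraries (colour gives the treatment, circles replicate 1 and triangles replicate 2), with the number of genes tested beside each group. In each of the 6 groups of members both combination libraries lie to the right of the other 6 libraries, sorting, TFEB control and autophagy genes lie between -0.04 and 0.18 in every library, and all genes tested have medians from -0.02 to 0.02.

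Genes of monocyte and macrophage maturation were also higher in sum. Their summed level was 731 and 778 CPM in DMSO, 2040 and 2505 with VTP50469, 1779 and 1712 with WM1119, and 6906 and 9079 with the combination. Of 15 tested, 7 were called higher with the combination and 1 lower by edgeR. Over all genes 5.85% were called higher and 3.44% lower. Lysozyme (LYZ) had a log2 change of 3.70 ± 0.21 and made up most of the summed level, and VCAN was the gene called lower. Inhibitors of lysosomal and granule proteases moved too, with 3 of 6 called higher and 5 of 6 above 0. The calls were SLPI at 6.28 ± 0.60, CST3 at 2.70 ± 0.43 and SERPINB1 at 1.77 ± 0.25. Their combination libraries lay apart, at 103 and 291 CPM for SLPI, 183 and 494 for CST3 and 116 and 203 for SERPINB1. The median of these inhibitors, 1.40, was 0.94 without combination replicate 2. MOLM-13 identity genes gave 2 called higher (CD33 at 0.80 and SPI1 at 1.19) and 2 lower (FLT3 at -1.10 and MEIS1 at -2.15) of 7 tested. Their part in the members' values was not tested. Markers of other cells were summed in the same way. For the T and NK list the sum was 25.2 and 22.3 CPM in DMSO and 33.2 and 84.3 with the combination, most of it NKG7 (82.1 CPM in combination replicate 2), with 3 of 7 genes at 0 in every library. For all of these lists the highest sum was in combination replicate 2. The sums were 0.527 to 3.16 for the B and plasma list (0 of 6 at 0), 11.3 to 19.2 for the erythroid list (4 of 7 at 0), 1.19 to 3.22 for the megakaryocyte list (2 of 5 at 0) and 1.24 to 4.96 for the epithelial and stromal list (5 of 9 at 0). CD2 was the 1 gene of these lists called, from 1 count over the DMSO libraries to 33 over the combination libraries.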

How the data were processed

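Total RNA of MOLM-13 cells was sequenced in 8 libraries, 2 in each of 4 groups. The authors deposited 1 table of expected counts per gene, made, per the labels, with STAR 2.5.1b and DESeq2 against hg38; the counting tool, annotation and strand setting were not given in the sources used here. Between 11.4% and 16.6% of the genes with counts had a value that was not whole, and all values were rounded. Libraries held 18092906 to 23634468 counts, which limits precision for genes such as CTSH and IDUA.

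Counts were fitted by the quasi-likelihood test of edgeR 4.0.16 (R 4.3.3) with TMM factors over all 8 libraries and 4 groups (4 residual degrees of freedom, common dispersion 0.0457), after edgeR's default filter on low counts, which left 12401 genes. P-values were adjusted by Benjamini-Hochberg over those genes, and calls were made at 0.05. CPM used the TMM library sizes; levels per kb used the canonical transcript of GENCODE 44. Tables were joined in Python 3.11.15, and the fit was run on simulated data with known changes. Those data held no outlying library and no trend with transcript length, so they cannot show how the fit handles either. Alternatives were DESeq2 1.42.0, other scalings and filters, a replicate block, a robust fit, only the groups compared, an offset for transcript length and leaving out each library.

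The members and lists were chosen with earlier results of these data known. Values were given for the 20 called members with the lowest p, the 3 factors and the member with the highest CPM per kb of each role; the other calls (IDUA and ATP6V1H) and uncalled members singled out were named after their values were seen. From each lysosomal list, up to 4 called genes with the lowest p were named, except for a result that is not reported here. Promoters were RefSeq windows of GRCh38.p14.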

Additional observations from a re-analysis of the deposited data

Results flagged for a closer look

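ARSB, arylsulfatase B, which removes sulfate from dermatan and chondroitin sulfate, was the 1 member whose libraries moved in opposite directions with the single agents. It read 88.9 and 86.3 CPM in DMSO, 99.9 and 93.2 with VTP50469, and 76.7 and 83.0 with WM1119, so that both VTP50469 libraries lay above DMSO (log2 change 0.14) and both WM1119 libraries below (-0.13). The difference between the agents was not tested, and neither change from DMSO was called by edgeR.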

How the results depend on the processing

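The calls depend on how the spread is estimated. Of the 22 members called for the combination against DMSO, all kept their call with DESeq2, RLE factors, a minimum of 10 counts in every library and the length offset; 18 kept it with library size only, 20 without a filter and 18 with a robust fit. The count was 35 with the length offset and 0 with only the groups compared, and 0 to 37 over the fits leaving out 1 library: 0 without DMSO replicate 1 or 2, 6 without VTP50469 replicate 1 or 2, 10 and 8 without WM1119 replicates 1 and 2, 37 without combination replicate 1 (35 higher, where 28.9% of all genes were called higher) and 33 without replicate 2. Against WM1119 (3 called) it was 16 with DESeq2, 13 with the length offset, 0 with only the groups compared and 0 to 35 leaving out 1 library (14 without combination replicate 2, 35 without replicate 1, where 24.8% of all genes were called higher, and 0 without any other). Against VTP50469 (0 called) it was 11 with DESeq2, 2 with library size only, 3 without a filter, 9 with the length offset and 0 to 33 leaving out 1 library (8 without combination replicate 2, 33 without replicate 1, where 26.6% of all genes were called higher). VTP50469 against DMSO (0 called) gave 2 with DESeq2, 18 with only the groups compared, 1 with the length offset and 0 to 6 leaving out 1 library (6 without either combination library). WM1119 against DMSO (0 called) gave 1 with DESeq2, 2 with only the groups compared, 1 with the length offset and 0 to 2 leaving out 1 library (2 without either combination library). The interaction gave 0 to 16 leaving out 1 library. Fits without a library, or of fewer groups, have fewer residual degrees of freedom. Beyond that the cause was not tested. Over all genes, the share called higher for the combination against DMSO was 4.63% with library size only, 4.55% without a filter and 5.27% with a robust fit. It was 0% with only the groups compared, and it fell or rose with the member count when 1 library was left out. With the length offset the share was 11.3% against DMSO, 3.19% against WM1119 and 2.41% against VTP50469. For WM1119 against DMSO it was 0.259% with only the groups compared.

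Same-numbered libraries did not deviate together (correlations of -0.393 to 0.141 between groups), so the numbers were not taken as pairs. With a replicate block 11 members were called for the combination against DMSO, 10 of them higher, where 2.80% of all genes were called higher. Against WM1119 that fit called 0 members, where 0.403% of all genes were called higher. For the combination against DMSO the sign turned in some fits for 7 uncalled members. Leaving out 1 library gave ranges of -0.41 to 0.63 for TFEB, -0.76 to 0.05 for NPC1 and -0.02 to 0.66 for MCOLN1 (each turned without combination replicate 2), -0.04 to 0.64 for SCARB2 (without combination replicate 1) and -0.49 to 0.64 for IDS (without combination replicate 1, and -0.09 without DMSO replicate 2). CTSC was -0.01 with library size only and -0.13 with the length offset, and MITF was 0.01 with the length offset and ran from -0.80 to 0.23 leaving out 1 library (0.13 without DMSO replicate 1, 0.23 without combination replicate 2). Library size alone moved the median of all genes by -0.10 for the combination against DMSO. Counts of few reads limit CTSH, IDUA and LGMN.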
